A study of Homo sapiens with 83 samples.

Results

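The 34 genes described here encode enzymes that make, recycle and balance purine and pyrimidine nucleotides. They form a list of gene symbols, each of which matched 1 of the 60237 gene entries of the expression table. The matching uses no measured value, but the list was chosen with earlier results of these data known. The genes were grouped by role into 2 that make the shared ribose donor, 14 of the de novo routes (6 of the purine route, 3 of its GMP branch and 5 of the pyrimidine route), 8 of salvage, 7 kinases that add phosphates to nucleotides and 3 that guard the deoxynucleotide pool. All 34 passed the filter of a mean of at least 1 TPM (transcript abundance per gene length, scaled to the same total in every library) in each cell line.

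Cells build nucleotides in either of 2 ways. De novo synthesis builds the purine ring stepwise on activated ribose, from amino acids, carbon dioxide and one-carbon units. The pyrimidine ring is built first, from amino acids and carbon dioxide, and then joined to that ribose. Salvage attaches activated ribose or a phosphate to bases and nucleosides that already exist. The salvage genes here also include PNP and NT5E, which release a base or a nucleoside. Genes of the de novo routes are well known targets of the MYC family of transcription factors, which bind the E-box sequence CACGTG, and growing tumours, neuroblastoma among them, use nucleotides for RNA as well as for DNA.

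Polyadenylated RNA had been sequenced from SHEP and SKNAS, human neuroblastoma lines that overexpress N-MYC-ER, in which the N-MYC protein is joined to the hormone-binding part of the estrogen receptor. In MYC-ON cells the fusion was switched on with 4-hydroxytamoxifen (4OHT), and MYC-OFF cells received ethanol, the vehicle. Every culture was then given dexamethasone to align its clock, and circadian time (CT) counts the hours since. SHEP contributed 28 MYC-OFF and 28 MYC-ON libraries, as 2 series of 14 CTs taken every 4 h from CT24 to CT76, and SKNAS 14 MYC-OFF libraries (CT24 to CT76) and 13 MYC-ON libraries (CT24 to CT72) from 1 series. Since 4OHT was given to MYC-ON cells alone, an effect of the drug and an effect of the fusion cannot be told apart, and the fusion is overexpressed in both states. In bulk RNA, fewer cells of a type and less RNA per cell cannot be told apart. Time points served as replicates, so a p-value measures the spread between time points of 1 experiment in SKNAS and of 2 in SHEP.

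The transcript of MYCN, which the fusion carries, was abundant in SHEP in either state, at 406 to 688 (median 559.9) TPM in MYC-OFF and 255 to 515 (median 353) in MYC-ON. SKNAS ranged more widely, from 13.1 to 1046 TPM in MYC-ON. Of 10 markers of adrenergic neuroblastoma cells, 7 had a mean of at least 1 TPM in SKNAS and 2 in SHEP, and of 8 mesenchymal markers 7 did in the MYC-OFF cells of each line, with summed medians of 4272 TPM in SHEP and 1898 in SKNAS. In SKNAS the summed adrenergic markers had a median of 667 TPM (346 to 775) in MYC-OFF and 207 (91.8 to 296) in MYC-ON. Its sum of 4 epithelial markers went from 832 (561 to 1078) to 378 (313 to 457), and neither sum overlapped between the states. With the fusion inactive that epithelial sum came from KRT8 and KRT18, since EPCAM and CDH1 had means under 1 TPM. EPCAM went the other way and reached 1 TPM once the fusion was active. The epithelial sum of SHEP had medians of 1707 (MYC-OFF) and 1692 TPM (MYC-ON). The part of such marker shifts in the SKNAS changes was not tested. The noradrenergic markers TH and DBH were under a mean of 1 TPM in every group. The leukocyte marker PTPRC was present in SKNAS (median 94.5 TPM in MYC-OFF and 17.7 in MYC-ON) while CD3E and CD14 were under 1 TPM. SKNAS libraries also differed from each other as whole libraries. Their median log2(TPM + 1) over all genes tested lay between 2.97 and 4.38 in MYC-OFF and between 2.76 and 4.25 in MYC-ON, and it was under 3.8 in 4 of 14 and 10 of 13 libraries, against 3.93 to 4.17 over both SHEP groups.

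The listed de novo genes rose broadly with N-MYC activation, while the listed salvage genes split between rise and fall. All changes are MYC-ON minus MYC-OFF on the log2(TPM + 1) scale, and for scarce transcripts the added 1 shrinks them. In SHEP 13 of the 14 de novo genes were called higher and none lower, with CTPS2 as the exception, and 9 reached 1.5-fold. A call needed a log2 change of 0.15 or more in size (0.66 for 1.5-fold) together with an adjusted p no higher than 0.05. The 0.66 is the study's setting for 1.5-fold and lies slightly above an exact 1.5-fold. Counts at 1.5-fold therefore leave out genes just under it, such as GART in SHEP (0.61). The 14 had a median log2 change of 0.78, against -0.04 over all genes tested. They do not include ADSS1 and ADSS2, the synthases of the AMP branch. ADSS2 was called lower in SHEP (-0.33, adjusted p = 1.41e-11) and not called in SKNAS (-0.44, adjusted p = 0.0618). ADSS1 was called lower in SKNAS (-0.63, adjusted p = 0.00169). Of the 8 salvage genes 3 were higher, 2 lower and 3 not called, with a median of 0.06. Over all 34 members 22 were higher and 5 lower in SHEP, where 33% of all 14362 genes tested were called higher and 38.9% lower. At 1.5-fold 14 members were higher and 2 lower, against 9.39% and 11.4% of all genes.

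In SKNAS 10 of 14 de novo genes were called higher and none lower, with GART, PFAS, DHODH and CTPS2 not called, and 4 reached 1.5-fold. The de novo median was 0.52 and the salvage median 0.22, with 4 salvage genes higher, 2 lower and 2 not called. Members totalled 20 higher and 3 lower, set against 13.9% and 34.2% of the 13886 genes tested, and 9 higher and 2 lower at 1.5-fold, against 6.99% and 23.8%. The median over all genes was -0.29 in SKNAS. After rescaling each library to a common median ratio, which brought that median to 0.03, 13 de novo genes were called higher and the salvage median was 0.59, and 23 members were 1.5-fold higher, where 27.6% of all genes were then called higher and 15.6% at 1.5-fold. With the library median as a covariate 13 de novo genes were again called higher, 22 members were higher and 2 lower (28.3% and 25.9% of all genes), and 15 were 1.5-fold higher (11.2%).

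**Figure D1:**
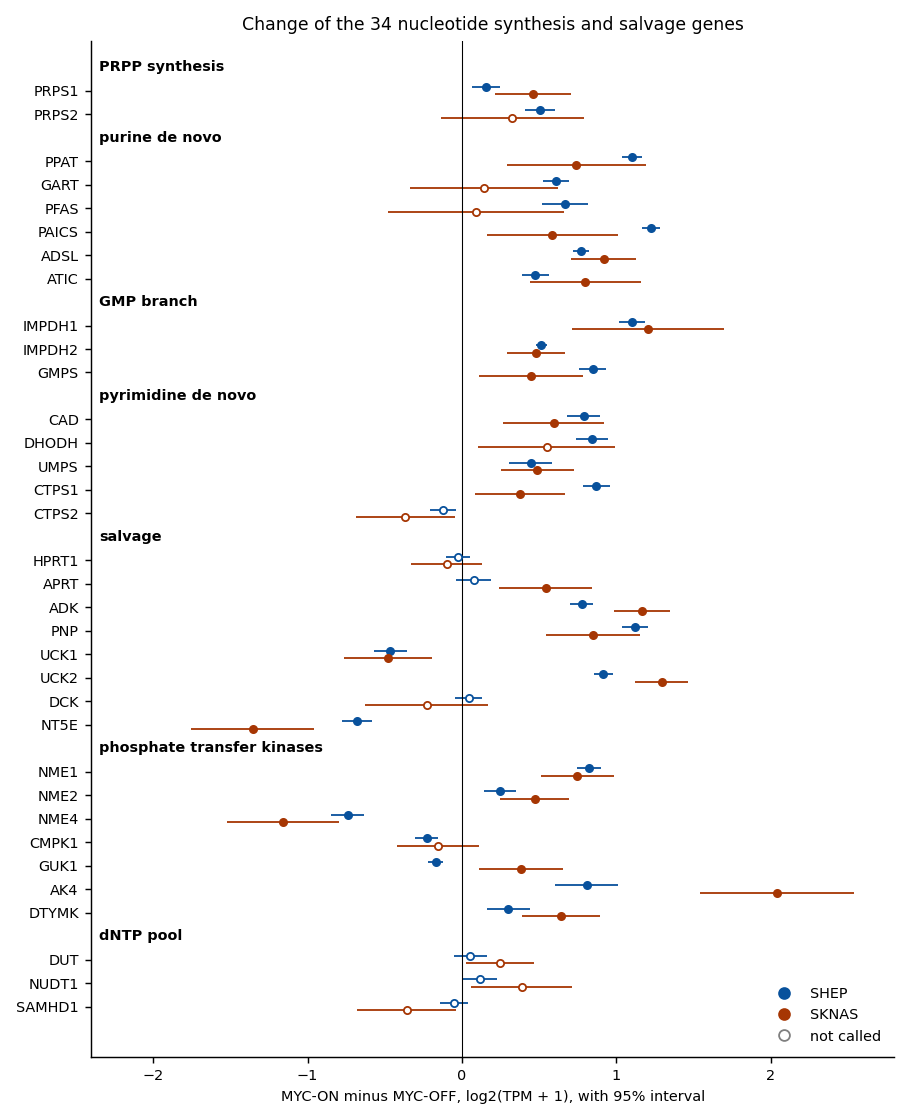
Log2 change of each of the 34 genes (MYC-ON minus MYC-OFF, log2(TPM + 1)) in SHEP (blue, 56 libraries) and SKNAS (brown, 27 libraries), with the 95% interval of the limma fit as a bar and open circles for genes not called. De novo genes lie to the right of 0 with CTPS2 as the exception, salvage genes lie on either side, and the SKNAS intervals are the wider.

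Summed over genes, the de novo transcripts of a SHEP library held 945 to 1070.3 TPM (median 1017) in MYC-OFF and 1575 to 1889 (median 1790.1) in MYC-ON. Salvage transcripts summed to 599 to 727 TPM (median 666) and 661 to 920.2 (median 844). The de novo sums did not overlap between the states and the salvage sums did, although both sums were higher in MYC-ON at 28 of 28 matched time points. The ratio of the sums, which does not depend on how a library is scaled, lay between 1.38 and 1.76 (median 1.55) in SHEP MYC-OFF and between 1.89 and 2.70 (median 2.09) in MYC-ON, with no overlap. With NT5E left out of the salvage sum the medians were 1.69 and 2.18, again with no overlap.

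In SKNAS the ratios of the states overlapped. Its de novo sums lay between 962 and 1377 TPM (median 1160.2) in MYC-OFF and between 1545 and 2253 (median 1728) in MYC-ON, and its salvage sums between 471 and 616 (median 556) and between 739 and 1041 (median 948), so that neither sum overlapped between the states. The ratio ran from 1.86 to 2.92 (median 2.02) in MYC-OFF and from 1.66 to 2.36 (median 1.93) in MYC-ON, and was higher in MYC-ON at 4 of 13 matched time points. With NT5E left out the medians were 2.05 and 1.93, and the ratio was higher in MYC-ON at 3 of 13. The MYC-OFF ratio of 2.92 came from CT56, a library with a whole-library median of 2.97. At a whole-library median of at least 3.8, the 3 MYC-ON libraries had ratios of 2.01 to 2.36 and the MYC-OFF libraries 1.89 to 2.19. MYC-ON libraries under 3.8 had ratios of 1.66 to 2.09. The part of these library differences in the ratios was not tested. UCK2 alone averaged 317 ± 40.1 TPM (SD, n = 13) of the SKNAS MYC-ON salvage sum, against 127 ± 15.1 (n = 14) in MYC-OFF. The sums and ratios are a description, and no test over members was run.

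**Figure D2:**
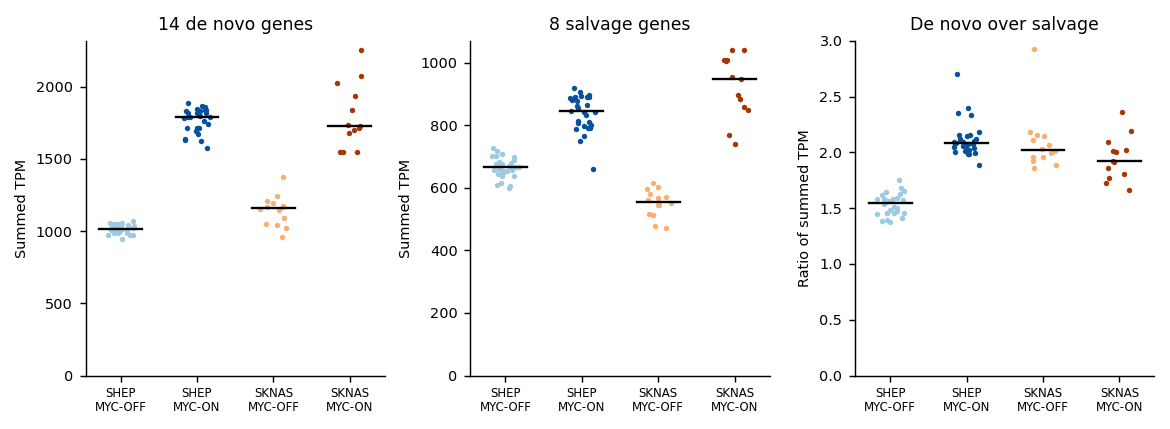
Summed TPM of the 14 de novo genes (left), of the 8 salvage genes (middle) and their ratio (right), 1 point per library, for MYC-OFF and MYC-ON of SHEP (28 libraries each) and of SKNAS (14 and 13), with a line at the median. Ratios of the SHEP groups do not overlap (1.38 to 1.76 against 1.89 to 2.70), while those of the SKNAS groups do.

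The ribose donor PRPP, which both routes consume, is made by PRPS1 and PRPS2. PRPS1 lay at 75.98 to 135 (median 86.2) TPM in SHEP MYC-OFF and 61.1 to 130.1 (median 104) in MYC-ON, and at 39.2 to 77.1 (median 49.7) and 51.6 to 115 (median 70.9) in SKNAS. The groups overlapped in either line, and the change was 0.15 ± 0.05 (SE) in SHEP (adjusted p = 0.00241) and 0.46 ± 0.12 in SKNAS (adjusted p = 0.00697). The SHEP call of PRPS1 was lost without the first series and with series means as replicates. PRPS2 was at 21.6 to 32.2 (median 26.9) TPM and 25.0 to 49.7 (median 39.1) in SHEP, a rise of 0.51 ± 0.05 (adjusted p = 1.26e-12), and changed by 0.33 ± 0.24 in SKNAS, which was not called (adjusted p = 0.263). SKNAS libraries had PRPS2 at 9.66 to 40.3 (median 29.9) TPM in MYC-OFF and 9.82 to 65.3 (median 36.6) in MYC-ON, with overlap.

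The purine route opens with PPAT, the amidotransferase that commits PRPP to purine synthesis, and PAICS catalyses its carboxylation and ligation steps. In SHEP, PPAT lay at 20.0 to 27.2 (median 23.3) TPM in MYC-OFF and 44.02 to 59.8 (median 50.9) in MYC-ON. PAICS lay at 139 to 179 (median 165) TPM and 315 to 411 (median 385). Neither gene's SHEP groups overlapped, with changes of 1.10 ± 0.03 for PPAT (adjusted p = 1.42e-31) and 1.22 ± 0.03 for PAICS (adjusted p = 5.72e-35). On the log2(TPM + 1) scale PAICS had the widest gain of the 34 members in SHEP. Its mean TPM was 2.34-fold higher, while the scarce AK4 had a larger ratio of means (1.28 to 3.09 TPM). In SKNAS, PPAT lay at 4.08 to 20.5 (median 13.8) and 9.05 to 50.6 (median 20.4) TPM and PAICS at 31.9 to 121 (median 94.8) and 44.5 to 240.3 (median 135). These SKNAS groups overlapped, and the changes were 0.74 ± 0.23 (adjusted p = 0.0151) and 0.59 ± 0.22 (adjusted p = 0.0356), with both genes higher at 11 of 13 matched time points.

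PPAT and PAICS are head-to-head neighbours. On GRCh38 PPAT occupies positions 56393362 to 56435615 of chromosome 4 on the minus strand and PAICS 56435741 to 56464578 on the plus strand. Their RefSeq promoter windows, which run from 250 bases before to 50 bases after a transcript start, overlap and hold the same E-box, at 40 bases after the PAICS start and 182 bases before the PPAT start. Windows of PPAT, PAICS, ATIC and NME1 are printed, as the members with an E-box whose SHEP groups did not overlap, with CACGTG in capitals.
PPAT promoter, chr4:56435566-56435865, minus strand: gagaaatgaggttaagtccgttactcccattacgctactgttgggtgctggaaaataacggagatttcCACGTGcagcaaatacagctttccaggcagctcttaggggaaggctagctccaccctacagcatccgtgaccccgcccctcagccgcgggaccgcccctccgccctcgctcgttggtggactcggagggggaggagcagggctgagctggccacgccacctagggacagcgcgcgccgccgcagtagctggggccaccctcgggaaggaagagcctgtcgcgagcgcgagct
PAICS promoter, chr4:56435502-56435801, plus strand: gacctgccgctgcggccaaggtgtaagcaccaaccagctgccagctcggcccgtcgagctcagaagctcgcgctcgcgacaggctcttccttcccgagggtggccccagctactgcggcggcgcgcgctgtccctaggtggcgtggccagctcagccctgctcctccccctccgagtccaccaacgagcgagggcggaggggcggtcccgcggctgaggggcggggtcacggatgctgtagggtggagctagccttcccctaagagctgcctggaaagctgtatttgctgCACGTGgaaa
ATIC promoter, chr2:215311809-215312108, plus strand: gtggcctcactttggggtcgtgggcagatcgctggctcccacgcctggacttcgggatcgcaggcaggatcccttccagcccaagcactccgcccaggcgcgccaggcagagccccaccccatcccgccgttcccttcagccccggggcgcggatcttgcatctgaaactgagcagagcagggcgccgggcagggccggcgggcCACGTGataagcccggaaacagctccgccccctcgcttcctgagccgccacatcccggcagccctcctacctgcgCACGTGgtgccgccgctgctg
NME1 promoter, chr17:51153309-51153608, plus strand: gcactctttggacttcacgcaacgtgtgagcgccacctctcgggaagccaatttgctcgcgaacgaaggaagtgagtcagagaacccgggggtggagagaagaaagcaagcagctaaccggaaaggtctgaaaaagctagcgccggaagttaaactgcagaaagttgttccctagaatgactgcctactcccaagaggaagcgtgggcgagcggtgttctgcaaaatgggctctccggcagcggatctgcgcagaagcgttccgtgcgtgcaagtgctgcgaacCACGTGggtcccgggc

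CACGTG reads the same on both strands. It was present in the windows of 8 of the 32 members with a RefSeq window (PPAT, PAICS, ATIC, DHODH, DCK, NME1, AK4 and NUDT1), or 25.0%, and in those of 8.77% of all 27305 genes with one. ATIC carried 2 copies, at 46 bases before and 29 bases after its start. A match describes the letters of the window and does not show binding, and CAD, IMPDH1, ADK, PNP and UCK2, which also rose, held none in theirs. No entry was matched for ADSL and IMPDH2.

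The middle and last steps of the purine route moved with the first in SHEP. ADSL, the lyase that acts both late in the route and in making AMP, was at 49.4 to 62.4 (median 56.9) and 85.6 to 122 (median 95.7) TPM in SHEP, and ATIC, which closes the ring to IMP, was at 145 to 177 (median 160.2) and 183 to 334 (median 211). Neither pair of groups overlapped, and the changes were 0.77 ± 0.03 (adjusted p = 1.32e-28) and 0.47 ± 0.04 (adjusted p = 1.52e-13). In SKNAS, ADSL was at 46.0 to 89.5 (median 69.7) and 89.3 to 161 (median 141) TPM and ATIC at 182 to 796 (median 224) and 243 to 925 (median 505). ADSL rose there by 0.92 ± 0.11 (adjusted p = 5.18e-06), the steepest of the purine de novo genes in SKNAS, and ATIC by 0.80 ± 0.18 (adjusted p = 0.00229), with overlapping groups.

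GART, which carries 3 activities of the route, and PFAS, the amidotransferase after it, were called in SHEP and not in SKNAS. SHEP libraries held GART at 76.9 to 95.5 (median 87.3) and 106 to 198 (median 128) TPM, without overlap, and PFAS at 19.8 to 41.7 (median 29.0) and 26.8 to 64.9 (median 47.6), with overlap. The changes were 0.61 ± 0.04 (adjusted p = 3.05e-17) and 0.67 ± 0.08 (adjusted p = 5.48e-11). In SKNAS, GART was at 28.6 to 125 (median 106) and 39.8 to 216 (median 91.7) TPM and PFAS at 11.3 to 81.2 (median 44.7) and 15.0 to 105 (median 40.5), with lower medians in MYC-ON. Their fitted SKNAS changes, 0.14 ± 0.25 (adjusted p = 0.652) and 0.09 ± 0.29 (adjusted p = 0.809), rose to 0.77 and 0.83 with the library median as covariate, where both were called (adjusted p = 1.53e-07 and 2.19e-06). The line difference itself was called for both with a spread shared by the lines (adjusted p = 0.0168 for GART and 0.022 for PFAS) and for neither with a separate spread for each line (adjusted p = 0.18 and 0.167).

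From IMP the GMP branch runs through the dehydrogenases IMPDH1 and IMPDH2, its rate-limiting step, and GMPS, which aminates XMP to GMP. IMPDH1 lay at 65.1 to 96.4 (median 71.6) and 99.1 to 218 (median 159) TPM in SHEP and at 14.7 to 182 (median 141) and 106 to 469.5 (median 249) in SKNAS. Only the SHEP groups were free of overlap, and the rise was 1.10 ± 0.04 in SHEP (adjusted p = 5.18e-27) and 1.20 ± 0.25 in SKNAS (adjusted p = 0.00106), the widest of the de novo genes there. The isoenzyme IMPDH2 was at 171 to 228 (median 209) and 263 to 333 (median 294) TPM in SHEP, again without overlap, and rose by 0.51 ± 0.02 (adjusted p = 5.09e-28) and in SKNAS by 0.48 ± 0.10 (adjusted p = 0.000818). With the fusion inactive IMPDH2 was the more abundant isoenzyme in SHEP (mean 207 ± 12.1 TPM, SD, n = 28, against 73.8 ± 7.58), while in SKNAS MYC-ON the means were 219 ± 30.8 and 269 ± 107 (n = 13), with overlapping ranges. GMPS was at 51.7 to 67.2 (median 57.1) and 78.5 to 147 (median 103) TPM in SHEP, without overlap, and rose by 0.84 ± 0.04 (adjusted p = 2.96e-22), against 0.45 ± 0.17 in SKNAS (adjusted p = 0.0421). SKNAS libraries had GMPS at 35.03 to 118 (median 87.1) TPM in MYC-OFF and 47.6 to 210.2 (median 120.5) in MYC-ON, with overlap.

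Pyrimidine synthesis starts with CAD, which joins its first 3 activities in 1 protein. CAD lay at 44.03 to 73.3 (median 59.6) and 70.7 to 138 (median 104) TPM in SHEP and at 9.41 to 68.7 (median 50.4) and 21.8 to 111 (median 78.8) in SKNAS. CAD was higher in MYC-ON at 28 of 28 matched time points in SHEP and at 11 of 13 in SKNAS, with changes of 0.79 ± 0.05 (adjusted p = 5.19e-18) and 0.59 ± 0.17 (adjusted p = 0.0085). DHODH, the mitochondrial step, was the least abundant of the pyrimidine genes that rose in SHEP, at 9.40 to 15.0 (median 11.9) and 14.8 to 30.0 (median 22.4) TPM, a change of 0.84 ± 0.05 (adjusted p = 1.84e-19), and was not called in SKNAS (0.55 ± 0.23, adjusted p = 0.0555). SKNAS libraries had DHODH at 4.83 to 17.9 (median 11.7) TPM in MYC-OFF and 7.82 to 30.7 (median 16.1) in MYC-ON, with overlap. UMPS, which forms UMP, was at 23.7 to 34.5 (median 27.5) and 21.1 to 55.2 (median 39.0) TPM in SHEP, with the lowest MYC-ON library below the lowest MYC-OFF one, and rose by 0.44 ± 0.07 (adjusted p = 3.56e-07) and in SKNAS by 0.49 ± 0.12 (adjusted p = 0.004). SKNAS libraries had UMPS at 32.5 to 45.0 (median 36.7) TPM in MYC-OFF and 26.3 to 66.9 (median 54.6) in MYC-ON, with overlap.

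The CTP synthases parted. CTPS1 lay at 42.7 to 69.0 (median 51.2) and 55.5 to 124 (median 98.2) TPM in SHEP and rose by 0.87 ± 0.04 (adjusted p = 7.15e-23), and in SKNAS by 0.38 ± 0.15 (adjusted p = 0.0467). SKNAS libraries had CTPS1 at 27.6 to 72.2 (median 63.1) TPM in MYC-OFF and 34.3 to 108 (median 79.2) in MYC-ON, with overlap. CTPS2 lay at 4.92 to 8.17 (median 6.81) and 5.05 to 8.17 (median 6.01) TPM in SHEP and at 2.88 to 11.4 (median 9.67) and 4.07 to 7.96 (median 6.18) in SKNAS. It was the one de novo gene with a negative fitted change in each line, -0.12 ± 0.04 and -0.37 ± 0.16, and was called in neither (adjusted p = 0.00764, under the size needed, and 0.076), although without the first SHEP series it was called lower at -0.15.

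**Figure D3:**
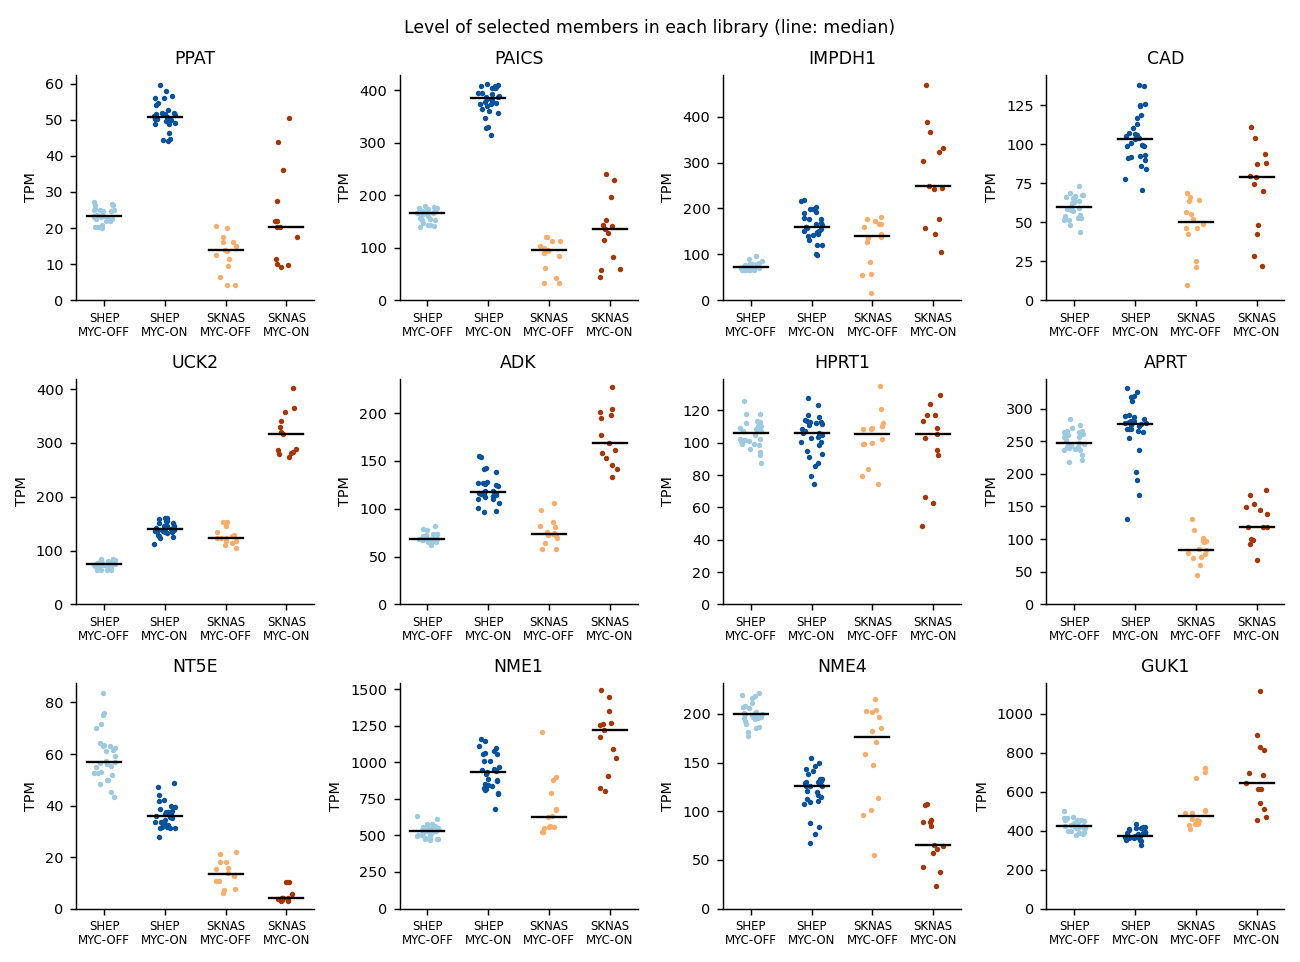
TPM of 12 members in every library, by state, for SHEP (28 MYC-OFF, 28 MYC-ON) and SKNAS (14 MYC-OFF, 13 MYC-ON), with a line at the median; each vertical axis starts at 0. PPAT and PAICS separate fully in SHEP, UCK2 and ADK in both lines, and HPRT1 medians lie between 105 and 106 TPM in all 4 groups.

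Salvage genes moved by enzyme and not as a class. UCK2, which phosphorylates uridine and cytidine, lay at 63.4 to 83.9 (median 74.9) and 111 to 161 (median 140.0) TPM in SHEP and at 104 to 154 (median 124) and 274 to 402 (median 316) in SKNAS. ADK, which returns adenosine to AMP, lay at 62.0 to 81.5 (median 68.8) and 96.4 to 155 (median 117) in SHEP and at 57.3 to 105 (median 74.0) and 133 to 227 (median 169) in SKNAS. Neither gene overlapped between states in either line. UCK2 rose by 0.91 ± 0.03 in SHEP (adjusted p = 4.51e-29) and 1.29 ± 0.09 in SKNAS (adjusted p = 2.06e-08), and ADK by 0.77 ± 0.04 (adjusted p = 1.53e-23) and 1.17 ± 0.09 (adjusted p = 1.36e-07). PNP, which splits purine nucleosides into base and ribose phosphate, was at 47.1 to 86.6 (median 56.8) and 89.3 to 149.9 (median 133) TPM in SHEP, without overlap, and rose by 1.12 ± 0.04 (adjusted p = 4.54e-27) and by 0.85 ± 0.15 in SKNAS (adjusted p = 0.000367). SKNAS libraries had PNP at 46.7 to 103 (median 93.6) TPM in MYC-OFF and 66.2 to 233 (median 172) in MYC-ON, with overlap.

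The base-salvage enzymes showed no such rise in SHEP. HPRT1, which recovers hypoxanthine and guanine, lay at 87.7 to 126 (median 106) and 74.6 to 128 (median 106) TPM in SHEP and at 74.2 to 135 (median 105) and 48.7 to 129 (median 106) in SKNAS. Its changes of -0.03 ± 0.04 (adjusted p = 0.543) and -0.10 ± 0.12 (adjusted p = 0.498) were not called, and their 95% intervals were -0.10 to 0.05 and -0.33 to 0.13. APRT, its adenine counterpart, lay at 218 to 284 (median 247) and 132 to 332 (median 277) in SHEP and at 44.6 to 131 (median 83.9) and 67.6 to 175 (median 119) in SKNAS. The SHEP change was 0.07 ± 0.06 (adjusted p = 0.225), while APRT was called higher in SKNAS (0.54 ± 0.15, adjusted p = 0.00948), where the call was lost with the library median as covariate (0.38, adjusted p = 0.0648). DCK, which phosphorylates deoxycytidine, was at 15.2 to 21.7 (median 18.2) and 13.3 to 22.3 (median 19.4) TPM in SHEP and was not called in either line (0.04 ± 0.04 and -0.23 ± 0.20, adjusted p = 0.386 and 0.362).

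NT5E and UCK1 fell. NT5E (CD73), the cell-surface enzyme that turns extracellular AMP to adenosine, lay at 43.1 to 83.6 (median 57.0) and 27.8 to 48.7 (median 35.8) TPM in SHEP and at 6.14 to 21.9 (median 13.4) and 2.902 to 10.4 (median 3.93) in SKNAS. It was lower in MYC-ON at 28 of 28 and 13 of 13 matched time points, although the ranges overlapped, with changes of -0.68 ± 0.05 (adjusted p = 8.84e-17) and -1.36 ± 0.20 (adjusted p = 6.13e-05). UCK1, the paralog of UCK2, lay at 24.1 to 33.3 (median 29.0) and 13.8 to 29.0 (median 20.6) TPM in SHEP and at 14.7 to 59.7 (median 48.1) and 24.8 to 36.4 (median 30.8) in SKNAS, the reverse of UCK2. Its changes were -0.46 ± 0.06 (adjusted p = 2.56e-10) and -0.48 ± 0.14 (adjusted p = 0.0128), and the SKNAS call was lost after rescaling (-0.11, adjusted p = 0.541).

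Among the phosphate transfer kinases NME1 and NME2, which convert nucleoside diphosphates to triphosphates, had the highest mean TPM of the members in all 4 groups, with NME2 first. NME1 lay at 470.4 to 629 (median 529) and 681 to 1159.5 (median 935) TPM in SHEP and at 525 to 1207 (median 629) and 804 to 1491 (median 1218) in SKNAS. NME1 groups did not overlap in SHEP, and its rise was 0.82 ± 0.04 (adjusted p = 4.31e-23) and 0.75 ± 0.12 (adjusted p = 0.000124). NME2 spanned 1262 to 1754 (median 1594) and 1298 to 2293 (median 1938) TPM in SHEP and rose less, by 0.24 ± 0.05 (adjusted p = 5.11e-05) and 0.47 ± 0.11 (adjusted p = 0.00353), and the SHEP call did not hold without the first series. NME1 (positions 51153559 to 51162428 of chromosome 17), NME2 (51165435 to 51171744) and the readthrough gene NME1-NME2 lie on the same strand and share exons, so the split of reads among them is uncertain, and NME1-NME2 itself was at 47.4 to 76.4 (median 61.0) and 44.6 to 87.7 (median 61.5) TPM in SHEP.

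NME4, the mitochondrial relative, went the other way. It lay at 177 to 222 (median 199.6) and 66.9 to 155 (median 126) TPM in SHEP and at 55.4 to 215 (median 177) and 22.7 to 108 (median 65.4) in SKNAS. The SHEP groups were fully separated, and NME4 fell by 0.74 ± 0.06 (adjusted p = 1.36e-16) and 1.16 ± 0.19 (adjusted p = 0.000115) on the log2 scale, at 28 of 28 and 13 of 13 matched time points. AK4, a mitochondrial adenylate kinase relative, was scarce, at 0.468 to 2.59 (median 1.19) and 0.975 to 5.67 (median 3.004) TPM in SHEP and 0.107 to 2.22 (median 0.826) and 2.69 to 23.0 (median 7.63) in SKNAS. The SKNAS groups did not overlap, and AK4 rose by 0.81 ± 0.10 (adjusted p = 1.85e-09) and 2.04 ± 0.25 (adjusted p = 1.11e-05), the widest rise of the 34 members in SKNAS.

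DTYMK, which makes dTDP from dTMP, lay at 57.4 to 89.4 (median 71.9) and 49.6 to 125 (median 92.3) TPM in SHEP and at 90.7 to 192 (median 118) and 117 to 296 (median 201) in SKNAS, rising by 0.30 ± 0.07 (adjusted p = 0.000207) and 0.64 ± 0.13 (adjusted p = 0.000795). GUK1, the guanylate kinase, was the one member called in opposite directions. It lay at 379.6 to 499.5 (median 422) and 326 to 431 (median 372) TPM in SHEP and at 408 to 719 (median 476) and 453 to 1118 (median 646) in SKNAS, with changes of -0.17 ± 0.02 (adjusted p = 3.55e-08) and 0.38 ± 0.14 (adjusted p = 0.0346). Rescaling took the SHEP value to -0.12, under the size needed for a call, and the library covariate took the SKNAS value to 0.09 (adjusted p = 0.442). CMPK1, which phosphorylates CMP and UMP, was lower in SHEP (-0.23 ± 0.04, adjusted p = 6.5e-07) and not called in SKNAS (-0.16 ± 0.13, adjusted p = 0.345), where rescaling turned it to 0.21 (adjusted p = 0.042).

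The pool guardians DUT (dUTPase), NUDT1 (which clears oxidised nucleotides) and SAMHD1 (which degrades dNTPs) were not called in either line. In SHEP, DUT was at 123 to 168 (median 138) and 92.0 to 186 (median 152) TPM, NUDT1 at 45.3 to 60.7 (median 50.8) and 33.2 to 72.8 (median 59.6), and SAMHD1 at 15.7 to 22.1 (median 19.3) and 13.95 to 23.4 (median 19.2), with overlap throughout. SKNAS libraries had DUT at 98.7 to 246 (median 209.9) and 158 to 282 (median 248), NUDT1 at 79.6 to 258 (median 129.9) and 79.6 to 295 (median 159), and SAMHD1 at 6.89 to 15.8 (median 11.9) and 5.76 to 19.1 (median 8.53), again with overlap. Their SHEP changes were 0.05 ± 0.05, 0.12 ± 0.06 and -0.05 ± 0.05 (adjusted p = 0.369, 0.0514 and 0.301). Their SKNAS changes were 0.24 ± 0.11, 0.39 ± 0.17 and -0.36 ± 0.16 (adjusted p = 0.0843, 0.0665 and 0.08).

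Counting members by full separation, every SHEP MYC-ON library lay above every MYC-OFF library for 12 of the 34 (PPAT, GART, PAICS, ADSL, ATIC, IMPDH1, IMPDH2, GMPS, ADK, PNP, UCK2 and NME1), against 6.11% of all genes tested, and below for NME4 alone, against 6.36%. In SKNAS 3 members lay fully above (ADK, UCK2 and AK4), against 2.32%, and 0 below, against 2.09%.

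The size of the change was then compared between lines with an interaction term over all 83 libraries. It was above SHEP in SKNAS for 8 members (13.5% of 15942 genes) and below for 10 (38.1%). With a separate spread for each line, fitted because SKNAS libraries vary more, 5 were above (APRT, ADK, UCK2, GUK1 and AK4, against 10.1% of all genes) and 3 below (PAICS, CTPS1 and NT5E, against 22.1%), and these 8 were called in the first fit too. AK4 differed by 1.23 ± 0.22 (adjusted p = 6.06e-06, or 0.00221 with separate spread) and PAICS by -0.64 ± 0.14 (adjusted p = 0.000153, or 0.0427). PPAT, GART, PFAS, GMPS, PNP, NME4 and SAMHD1 were below and PRPS1, ATIC and DTYMK above in the shared-spread fit alone. The 8 also kept their direction and call after rescaling and with the library median as covariate. In size the 3 below narrowed in both fits, and the 5 above widened after rescaling. Rescaling moved the counts over all members to 15 above and 3 below, against 25.1% and 25% of all genes.

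With the fusion inactive some members differed between the lines, in the main fit at a smaller share than all genes in either direction. At a log2 difference of at least 0.66, ATIC (0.79 ± 0.12), UCK2 (0.76 ± 0.04), DTYMK (0.77 ± 0.07) and NUDT1 (1.27 ± 0.10) were higher in SKNAS MYC-OFF than in SHEP MYC-OFF (4 of 34, against 20% of all genes). PRPS1 (-0.80 ± 0.07), PPAT (-0.94 ± 0.13), PAICS (-1.03 ± 0.12), APRT (-1.57 ± 0.08) and NT5E (-2.10 ± 0.12) were lower (5 of 34, against 31.1%). Of these, PPAT (-0.63), ATIC (0.49) and DTYMK (0.65) were under that size without SKNAS libraries of a median under 3.3, ATIC with the covariate (0.57) and PRPS1 after rescaling (-0.62). The lines were grown and sampled as separate experiments, so line and experiment cannot be told apart. PPAT and PAICS in SKNAS MYC-ON reached medians of 20.4 and 135 TPM, under the SHEP MYC-OFF medians of 23.3 and 165. Their SKNAS MYC-ON ranges spanned those SHEP medians. A whole-library median of at least 3.8 was found in 3 of the 13 SKNAS MYC-ON libraries and in all 28 SHEP MYC-OFF libraries.

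A mean over the time course hides a drift in SHEP MYC-ON. The 4OHT or ethanol was given 24 h before dexamethasone. Hours since dexamethasone, hours of treatment and hours in culture therefore run together and cannot be told apart. Slopes are given per 24 h on the log2(TPM + 1) scale over CT24 to CT76. In SHEP MYC-OFF 0 members were called rising (2.66% of all genes) and 1 falling (PRPS1 at -0.20 ± 0.05, against 4.69%), a call that was lost without the first series. In SHEP MYC-ON 3 rose (GART, NT5E and AK4, against 16.8%) and 17 fell (against 31.1%). Without the second series GART (0.0118, adjusted p = 0.797) and NT5E (0.13, adjusted p = 0.0742) were not called, nor were the falls of PRPS2, APRT, NME4 and NUDT1, and without the first that of CMPK1. The slope differed between states for 21 members, with 4 higher in MYC-ON (14.6% of all genes) and 17 lower (24.6%), and none of the 4 was called higher without the second series.

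DTYMK and UMPS had the most negative slope differences of the 34 members, followed by PFAS (-0.45 ± 0.09), UCK1 (-0.42 ± 0.05) and DUT. UMPS in MYC-ON averaged 50.7 ± 4.24 TPM (SD, n = 8) at CT24 to CT36 and 26.5 ± 4.41 at CT64 to CT76, against 27.9 ± 3.11 and 29.4 ± 3.14 in MYC-OFF. DTYMK went from 115 ± 7.50 to 63.0 ± 10.7 TPM in MYC-ON and from 71.7 ± 6.51 to 78.4 ± 6.55 in MYC-OFF. The early MYC-ON means thus lay above MYC-OFF for both genes, the late mean of DTYMK lay below, and the late means of UMPS differed by less than their SDs. The slopes of UMPS and DTYMK differed by -0.57 ± 0.07 (adjusted p = 4.99e-10) and -0.57 ± 0.06 (adjusted p = 9.36e-11). DUT, not called between the states as a mean, fell from 161 ± 10.7 to 116 ± 16.2 TPM in MYC-ON, with a slope difference of -0.41 ± 0.05 (adjusted p = 1.42e-08). Calls for these 3 were kept with either series left out.

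PPAT and PAICS were not called for a slope in MYC-ON. PPAT averaged 50.9 ± 3.57 TPM at CT24 to CT36 and 50.1 ± 4.13 at CT64 to CT76 in MYC-ON, a slope of -0.01 ± 0.03 (adjusted p = 0.828), and PAICS 385 ± 21.4 and 355 ± 29.9, a slope of -0.07 ± 0.03, under the size needed. CAD fell from 119.7 ± 14.1 to 87.4 ± 9.92 TPM (-0.26 ± 0.03, adjusted p = 1.52e-12), and CTPS1 (-0.36 ± 0.03), PFAS (-0.37 ± 0.06) and IMPDH1 (-0.35 ± 0.04) fell as well. IMPDH2 and GMPS were not called. Of the de novo genes 1 rose and 5 fell with CT in MYC-ON, 3 of the 5 in the pyrimidine route, and of the salvage genes 1 rose and 4 fell, beside 16.8% and 31.1% of all genes.

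Genes of DNA replication and mitosis moved alongside. All 18 genes of a proliferation list had a lower slope in MYC-ON than in MYC-OFF and 17 of 18 fell in MYC-ON, with a median slope of -0.45, and the list's summed level over SHEP MYC-ON libraries ran from 671 to 1648 TPM against 911 to 1393 in MYC-OFF. Its part in the falls of UMPS, DTYMK and DUT was not tested. Rescaling reduced the members with a lower slope from 17 to 10 (20.5% of all genes), while UMPS (-0.53), DTYMK (-0.53), DUT (-0.37) and IMPDH1 (-0.22) stayed called. IMPDH1 was not called without the second series (-0.14, adjusted p = 0.0654).

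**Figure D4:**
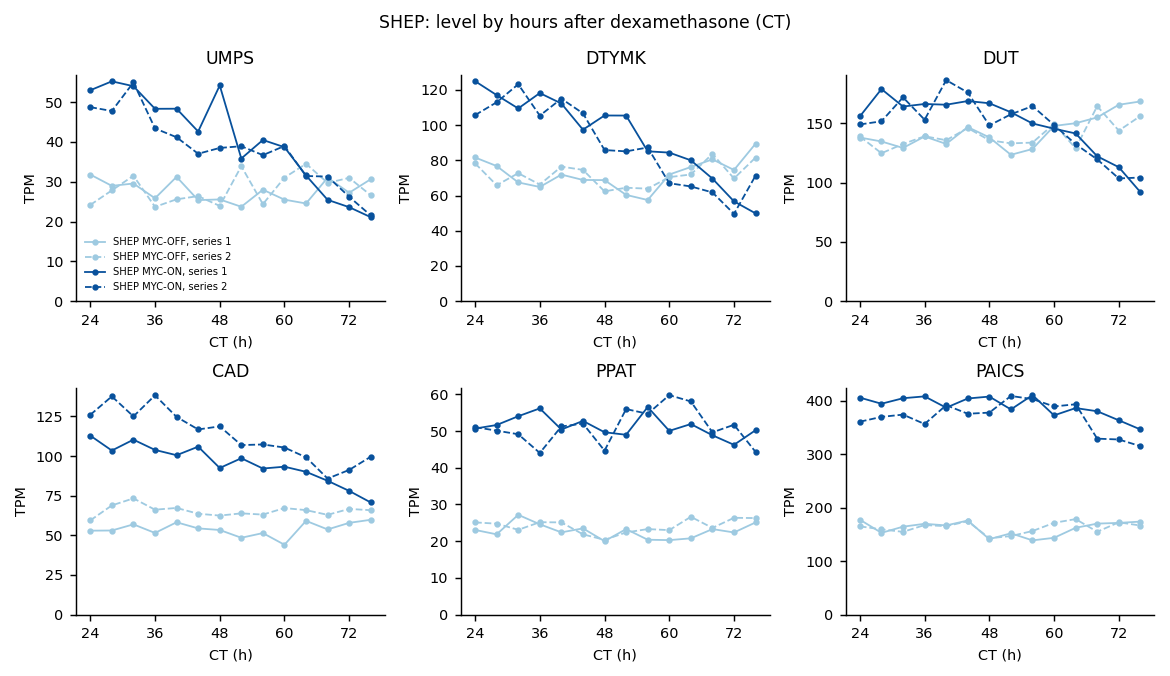
TPM of UMPS, DTYMK, DUT, CAD, PPAT and PAICS against CT in SHEP, 1 line per series (solid, series 1; dashed, series 2), MYC-OFF pale and MYC-ON dark, with vertical axes from 0. UMPS and DTYMK fall over the course in MYC-ON and start above the MYC-OFF lines, while PPAT and PAICS stay above them throughout.

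A 24 h rhythm was looked for in each group with the linear trend removed. Limma called 0 of 34 members rhythmic at an adjusted p of at most 0.05 in any group, where 0.126% of all genes were called in MYC-OFF and 0.014% in MYC-ON of SHEP, and 0% in either state of SKNAS. The lowest adjusted p of any member was 0.283 and 0.24 in the SHEP states and 1 and 0.993 in the SKNAS states, MYC-OFF first. At an unadjusted p under 0.05 SHEP had 3 members in MYC-OFF (10.6% of all genes) and 2 in MYC-ON (10.9%), and SKNAS had 0 in MYC-OFF (0.411%) and 0 in MYC-ON (0.239%). The SKNAS groups hold 13 or 14 time points of 1 series, which limits what can be detected there.

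Of 44 further nucleotide genes outside the 34, SHEP had 16 higher and 17 lower of 42 tested and SKNAS 9 higher and 13 lower of 41, beside 33% and 38.9% of all genes in SHEP and 13.9% and 34.2% in SKNAS. Changed 1.5-fold the same way in both lines were AK6 (0.75 ± 0.05 in SHEP and 1.09 ± 0.15 in SKNAS), the pyrimidine nucleotidase NT5C3A (1.13 ± 0.05 and 0.88 ± 0.11), the mitochondrial nucleotidase NT5M (1.37 ± 0.09 and 1.09 ± 0.13), and the nucleoside transporters SLC29A1 (1.16 ± 0.04 and 1.04 ± 0.22) and SLC29A2 (0.94 ± 0.05 and 0.97 ± 0.15), all higher, and TK2, the mitochondrial thymidine kinase, lower (-1.05 ± 0.05 and -0.93 ± 0.20). AK6 shares its locus with TAF9, so its level is uncertain.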

How the data were processed

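The authors mapped reads to Gencode transcripts (GRCh38) with Salmon 1.3.0 and collapsed them to genes with Tximport, and the deposited values are TPM, which are divided by gene length and scaled to a fixed total in each library. TPM keep no read depth, so depth is unknown here and no counting error is given. The authors' tests used counts, which were not used here, so limma 3.58.1 in R 4.3.3 was fitted to log2(TPM + 1) over every gene with a mean TPM of at least 1, with CT as a factor and Benjamini-Hochberg adjustment over all genes tested. A call needed a log2 change of 0.15 or more in size and an adjusted p no higher than 0.05. The size was 0.66 for levels between lines and for 1.5-fold, slightly above an exact 1.5-fold. Trends, their difference and a 24 h cosine were fitted by limma as well. Scripts were tested on simulated data. Both states of a SHEP series share the number of 1 replicate experiment, and series deviations in MYC-OFF and MYC-ON correlated over genes (r = 0.489), so a fit with this block was run as an alternative.

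The members and lists were chosen with earlier results of these data known. Members past 1.5-fold, with line differences, with opposite calls or not called are described individually. Promoters came from RefSeq (GRCh38.p14) and gene positions from Gencode 44. The study's other cell line, and its further SKNAS series, were not analysed here.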

Additional observations from a re-analysis of the deposited data

Results flagged for a closer look

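For 8 members the change with N-MYC activation differed between the lines, by the interaction term over all 83 libraries and again with a separate spread for each line. With separate spread 10.1% of all genes were called above and 22.1% below. The log2 change in SKNAS exceeded that in SHEP by 1.23 for AK4, 0.55 for GUK1, 0.47 for APRT, 0.39 for ADK and 0.38 for UCK2. It was lower in SKNAS by a difference of -0.68 for NT5E, -0.64 for PAICS and -0.49 for CTPS1. AK4, ADK and UCK2 rose in both lines, and NT5E fell in both. Line and experiment cannot be told apart. Whole-library medians were lower in SKNAS MYC-ON than in the other groups, and after rescaling and with the library median as covariate the 8 kept their direction and call. Sizes changed, first after rescaling and then with the covariate. The differences below narrowed to -0.36 and -0.20 for PAICS, -0.21 and -0.24 for CTPS1 and -0.45 and -0.36 for NT5E. Those above widened after rescaling. With the covariate AK4 reached 1.67, while ADK (0.39), APRT (0.33), GUK1 (0.31) and UCK2 (0.28) did not widen. The median difference over all genes was -0.22, then 0.0045 and 0.0116.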

How the results depend on the processing

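In SHEP the 22 higher and 5 lower members became 20 to 23 and 5 without either series, and stayed 22 and 5 with the replicate block, which changed no call count by over 1.5 times (line difference 9 above, 11 below). Of all genes 33% were higher and 38.9% lower, 30.6% and 37.6% without replicate 1, and 31% and 35.9% without replicate 2. With the block these were 33.2% and 39.1%, and 14% above and 38.8% below for the line difference. Members 1.5-fold lower in SHEP went from 2 to 1 after rescaling and were 1 without replicate 1 or 2. The share of all genes was 11.4%, then 10.2% after rescaling and 12.4% and 10.8% without replicate 1 and 2. In SKNAS the members 1.5-fold higher went from 9 to 23 after rescaling, 15 with the library covariate and 15 among libraries with a median of at least 3.8, and the salvage median was 0.59 after rescaling. The share of all genes went from 6.99% to 15.6%, 11.2% and 10.3% in the same order. Line differences above and below went from 8 and 10 to 15 and 3 after rescaling and 5 and 3 with separate spread (added after seeing the data). Of all genes 13.5% and 38.1% were called, then 25.1% and 25%, and 10.1% and 22.1%. Members below were 6 without a CT term (32.6% of all genes) and 5 with the covariate (22.8%). Leaving out a series gave 5 to 6 above (8.93% to 9.92%) and 3 to 4 below (22.7% to 22.8%). Members higher in SKNAS MYC-OFF went from 4 (20% of all genes) to 9 after rescaling (24.1%) and 7 without libraries of a median under 3.3 (22.7%). Falling members in SHEP MYC-OFF ranged from 0 to 1 without a series, rising ones in MYC-ON from 1 to 7 (6 after rescaling), slopes higher in MYC-ON from 0 to 6 (2 with no filter) and lower from 11 to 14 (10 after rescaling). The shares of all genes without a series were 0.571% to 7.35% falling in MYC-OFF and 15% to 17.2% rising in MYC-ON (22.9% after rescaling). They were 10.5% to 11.2% for higher slopes (5.88% with no filter) and 18.5% to 20.6% for lower (20.5% after rescaling). The causes were not tested. Signs turned for values that were not called, in SHEP for HPRT1 (0.0197 after rescaling, 0.0278 with the covariate), SAMHD1 (0.0770, covariate) and NUDT1 (-0.0163 without replicate 1), and in SKNAS for HPRT1 (0.27 after rescaling, 0.0686 without low-median libraries, 0.0825 at a median of at least 3.8), DCK (0.10, 0.17 with the covariate, 0.35), CMPK1 (0.21, 0.12, 0.25), NUDT1 (-0.17) and SAMHD1 (0.0795). Line differences turned with the covariate for PPAT (0.11), GART (0.0382), PFAS (0.0591) and ATIC (-0.0282), and after rescaling for PNP (0.0110). SKNAS rests on 1 series.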
